A study of Mus musculus with 18 samples.

Results

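The genes described here are 9 markers of the alveolar type 1 cell (AT1 cell) of the mouse lung: Ager, Hopx, Aqp5, Pdpn, Cav1, Rtkn2, Clic5, Igfbp2 and Emp2. They were taken by name, and each array probe whose RefSeq accession mapped to one of them was used. Of the 9 genes, 8 had at least 1 matched probe, 13 probes in all, among 20660 gene symbols and 55681 probes on the array. Rtkn2 had no matched probe and was not analysed here. AT1 cells are thin, flat epithelial cells that cover most of the alveolar surface and carry gas exchange, while the cuboidal alveolar type 2 cells (AT2 cells) make surfactant and act as the progenitors that replace lost AT1 cells. The AT1 markers encode membrane receptors and channels (Ager, Aqp5, Clic5), surface glycoproteins and tetraspan proteins (Pdpn, Emp2), the coat protein of caveolae (Cav1), a transcriptional co-regulator (Hopx) and a secreted binding protein of insulin-like growth factors (Igfbp2).

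Lungs came from 18 male mice of the transgenic Muta™Mouse strain, about 12 weeks old, which received a mixture of 4 polycyclic aromatic hydrocarbons (4PAH-Mix: benzo[a]pyrene (BaP), benz[a]anthracene, benzo[b]fluoranthene and chrysene) in olive oil by oral gavage each day for 28 days. The doses were 12.5 mg (low, n = 4), 25 mg (medium, n = 5) and 50 mg (high, n = 4) of BaP equivalents per kg body weight per day, and vehicle mice received olive oil alone (n = 5). Lungs were taken 3 days after the last dose, and 1 array was hybridised per mouse, so that replicates are separate animals. RNA came from random sections of frozen tissue of the right lung lobe with no sorting of cells, so each value is a sum over the cell types in the section.

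Each array set lung RNA (Cy5) against a common reference RNA from mouse cell lines (Cy3), and a level is the log2 ratio of lung over reference. A gene was called changed at a Benjamini-Hochberg adjusted p of at most 0.05 over all 55681 probes with a fold of at least 1.5 in limma, and a slope on dose was called on its adjusted p alone. Where a gene of this set had 2 probes, the brighter one stood for it in counts, and the second one is given beside it. Genes outside the set are given by their brightest probe alone. Over the 18 arrays, the median spot intensity was 110 to 142 in Cy5 and 75 to 89 in Cy3, and 52.9% to 62.1% of spots were well above background in Cy5. All 13 probes were well above background in both channels on every array and none was saturated. Each of the 3 slides held all 4 groups, but the column of the array on the slide followed the dose group, so column and dose cannot be told apart.

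PAHs are ligands of the aryl hydrocarbon receptor (AHR), which binds a short core motif, GCGTG, in the promoters of its target genes. In the RefSeq promoter table (GRCm38.p6), the 250 bases before the start were searched on both strands for this core in the 11 promoters of the 8 genes. It was found in 3 of the 11, those of Hopx, Aqp5 and Igfbp2 (1 start each), against 28.2% of all 32851 promoters in the table. The TEAD motif GGAATG, read by the TEAD partners of the co-activator Yap1, which act in AT1 cell fate, was in none of the 11 and in 12.6% of all. The sequences shown are both starts of Cav1, the one gene of the set that passed the calls against vehicle, and the Igfbp2 start with 2 matches, for contrast. Capitals mark the core on either strand, and all 3 stretches lie on the plus strand at chr6:17306085-17306334, chr6:17307390-17307639 and chr1:72824230-72824479. A match is a stretch of letters and not a measured binding site.
Cav1, upstream start: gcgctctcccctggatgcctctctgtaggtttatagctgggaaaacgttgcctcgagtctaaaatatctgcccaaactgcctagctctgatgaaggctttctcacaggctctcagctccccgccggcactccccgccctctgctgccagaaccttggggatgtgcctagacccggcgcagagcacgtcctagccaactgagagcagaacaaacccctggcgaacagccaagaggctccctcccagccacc
Cav1, downstream start: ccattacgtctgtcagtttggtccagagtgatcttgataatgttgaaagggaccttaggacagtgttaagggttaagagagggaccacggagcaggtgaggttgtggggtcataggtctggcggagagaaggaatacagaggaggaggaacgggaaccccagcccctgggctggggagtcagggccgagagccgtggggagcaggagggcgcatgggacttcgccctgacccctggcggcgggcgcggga
Igfbp2, upstream start: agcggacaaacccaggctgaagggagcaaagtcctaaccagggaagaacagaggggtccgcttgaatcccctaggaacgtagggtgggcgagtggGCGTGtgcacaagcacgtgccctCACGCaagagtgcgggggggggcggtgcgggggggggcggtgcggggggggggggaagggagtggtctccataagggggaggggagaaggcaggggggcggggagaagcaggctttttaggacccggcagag

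In vehicle mice, 7 of the 8 genes were at least 5.11-fold above the reference RNA, with a median log2 ratio of 4.22 over the 8 genes (3.26 with median centring). Clic5, an intracellular chloride channel protein linked to the actin cytoskeleton, was 119-fold above the reference, with a log2 ratio of 6.90 ± 0.22 (SD, n = 5). Ager, the receptor for advanced glycation end products (RAGE), was 54.6-fold above it (5.77 ± 0.18). Aqp5, the apical water channel, was 36.6-fold above by its brighter probe and 11.2-fold by the second. Hopx was 27.7-fold and 37.6-fold above, and Emp2 was 12.6-fold and 21.0-fold above. Cav1 followed at 6.55-fold and Igfbp2 at 5.11-fold and 4.85-fold. Podoplanin (Pdpn), a mucin-like glycoprotein also made by lymphatic endothelium and mesothelium, was 1.36-fold and 1.61-fold above the reference. These ratios measure enrichment over a mixture of cell lines and do not order the genes by their abundance in lung.

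**Figure D1:**
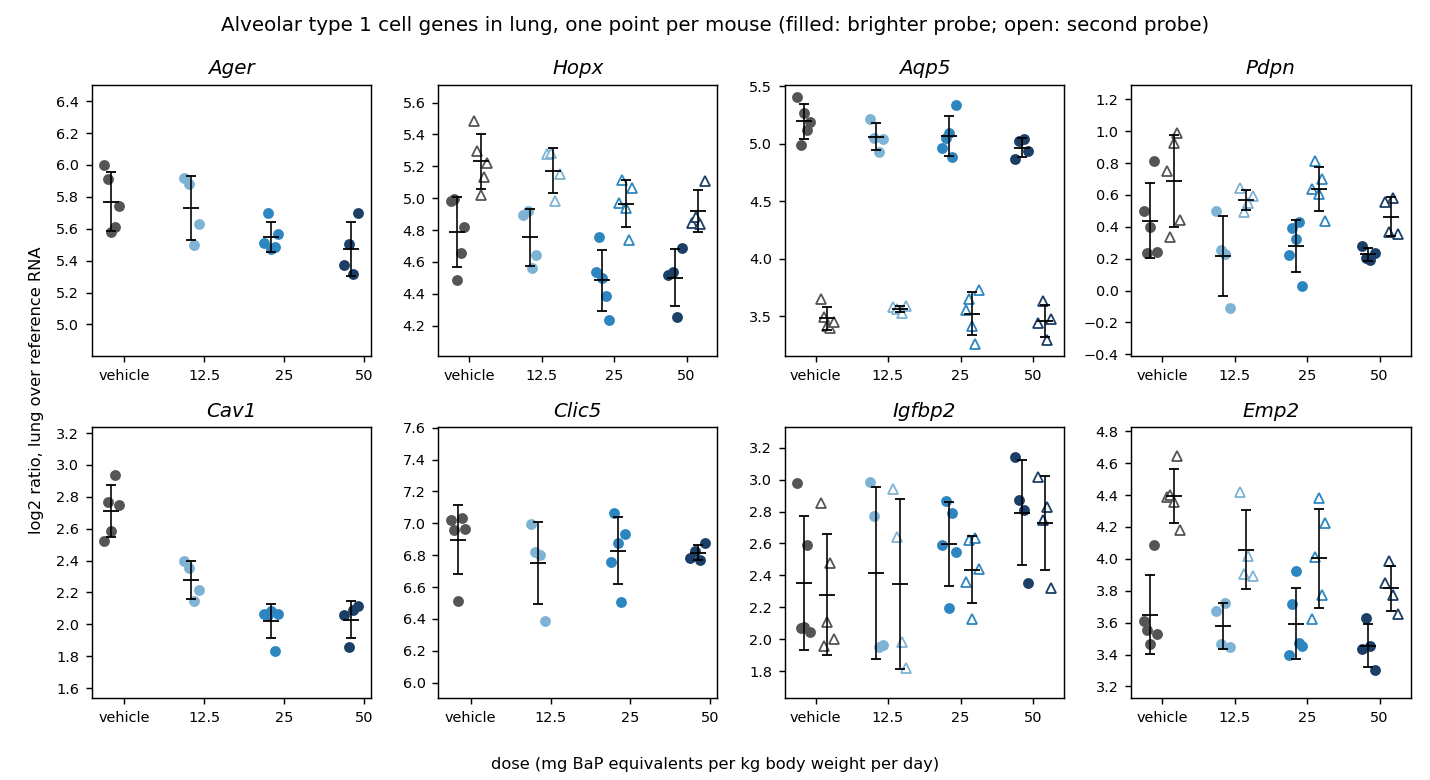
Log2 ratio of lung over reference RNA (y axis) of the 8 AT1 genes in each of the 18 mice by dose (x axis, mg BaP equivalents per kg body weight per day). Filled circles are the brighter probe of the gene and open triangles the second probe, bars give the mean ± SD of the 4 or 5 mice. Every exposed mouse lay below every vehicle mouse for Cav1, while the groups of the other genes overlapped, except for the second probe of Emp2 at 50 mg.

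Cav1 was the gene of this set that fell. Cav1 encodes caveolin-1, which forms the coat of caveolae, the flask-shaped membrane pits that are dense in AT1 cells and in capillary endothelium. The log2 ratios of the 5 vehicle mice were 2.52, 2.76, 2.59, 2.93 and 2.75. They were 2.40, 2.35, 2.15 and 2.21 at the low dose. At the medium dose they were 2.06, 2.06, 2.09, 1.84 and 2.06, and at the high dose 2.06, 1.86, 2.09 and 2.11. Every exposed mouse of every dose lay below every vehicle mouse, and the medium and high doses lay below the low dose and overlapped each other. Groups without overlap were seen in 3.35% (low dose), 5.96% (medium) and 10.7% (high) of all genes. These shares are for each dose against vehicle, and none was computed between doses or for the 3 doses together. The level dropped from 6.55-fold over the reference in vehicle mice to 4.85-fold, 4.06-fold and 4.08-fold at the 3 doses.

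Cav1 fell by 0.69 on the log2 scale at the medium dose (SE 0.085, adjusted p = 8.5e-05, limma), a 1.61-fold change with a 95% interval of -0.87 to -0.51. At the high dose it fell by 0.68 (SE 0.090, adjusted p = 1.0e-04, limma), a 1.60-fold change with an interval of -0.87 to -0.49. At the low dose the difference was -0.43 (SE 0.090, interval -0.62 to -0.25, adjusted p = 0.0522, limma), which was not called. A 2-sided exact permutation test of the 5 vehicle mice against each dose gave p = 0.00794 in each case, the smallest that these groups allow. Only groups without overlap reach this value. In all, 24 such tests were run over the genes of the set, and these p are not adjusted for them. Cav1 also fell along dose, with a slope of -0.67 log2 units per 50 mg (SE 0.12, adjusted p = 0.00266, limma). High against low dose differed by -0.25 (adjusted p = 0.62, limma) and was not called. Within the 3 slides the difference of high dose from vehicle was -0.69, -0.67 and -0.64. These rest on 2 high dose against 2 vehicle mice, 1 against 2 and 1 against 1. In bulk lung, fewer cells of a type and less RNA per cell cannot be told apart, here and in every result that follows.

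The call of Cav1 rests on the way the ratios were normalized. When loess was replaced by median centring, the differences were -0.31, -0.52 and -0.44 from the low to the high dose, and none was called, with an adjusted p of 0.795 at the high dose in limma. With scale normalization between arrays, the high dose difference was -0.55 (adjusted p = 0.00416, limma), under the fold limit.

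The other genes of the caveola gave no call at any dose in limma, and 1 of them, higher, had an unadjusted p under 0.05 at the high dose. The list of 8 held Cav2, the partner that forms mixed oligomers with caveolin-1, the muscle form Cav3, the coat proteins Cavin1, Cavin2, Cavin3 and Cavin4, and Ehd2 and Pacsin2, which shape the neck of the pit. At the high dose, 2 of the 8 were lower than vehicle (none with median centring), the median difference was 0.07, and over all genes 43.6% were lower with a median of 0.02. Cav2 differed by 0.14 at the high dose (SE 0.12, adjusted p = 0.642, limma) and Cavin1 by 0.04 (SE 0.15, adjusted p = 0.943). Cavin2 differed by 0.37 (adjusted p = 0.254) and Cavin3 by -0.21 (adjusted p = 0.457).

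The difference between Cav1 and these partners was then taken within each array, a measure that does not depend on a shift shared by the whole array and that was chosen after the values were seen. Cav2 and Cavin1 each had 2 probes, of which the brighter one alone was used. The log2 ratio of Cav1 minus that of Cav2 averaged 0.83 ± 0.10 (SD, n = 5) under vehicle, 0.33 ± 0.11 at 12.5 mg (n = 4), 0.11 ± 0.19 at 25 mg (n = 5) and 0.011 ± 0.24 at 50 mg (n = 4). No exposed mouse overlapped a vehicle mouse, and the change from vehicle was -0.51, -0.73 and -0.82 (exact permutation p = 0.00794 for each, adjusted over the 9 such comparisons 0.0179). Under the other 6 ways of processing, median centring and scale normalization among them, the high dose value was -0.85 to -0.80, again without overlap. Against Cavin1 the change at the high dose was -0.72 (exact permutation p = 0.0159, adjusted 0.0238). At the low and medium doses it was -0.41 and -0.58 (adjusted exact permutation p = 0.0397 for each), and both groups overlapped with vehicle. Against the mean of the other 7 AT1 genes it was -0.56 at the high dose (exact permutation p = 0.0159, adjusted 0.0238) and -0.59 at the medium dose (p = 0.00794 by the same exact test, adjusted 0.0179). At the low dose that change was -0.35 (adjusted 0.0397 by the same exact test), with overlap. Cav1 was picked on the same values, as the lowest of the 8 genes, and the p of the 9 comparisons do not allow for that choice. The share of other gene pairs without overlap was not computed.

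**Figure D2:**
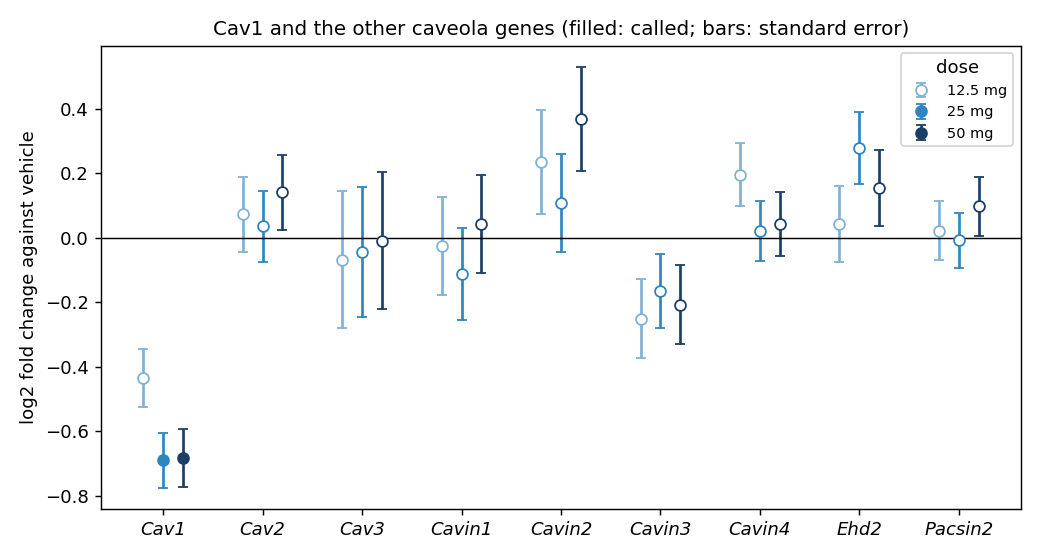
Log2 fold change against vehicle (y axis) of Cav1 and the 8 other caveola genes (x axis) at 12.5, 25 and 50 mg, with the standard error as bars and filled points for calls. Cav1 lay at -0.43, -0.69 and -0.68, and no other gene passed the call.

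Epithelial membrane protein 2 (Emp2), a tetraspan protein abundant in AT1 cells that takes part in the surface display of integrins, gave values that depended on the probe. By the second probe the vehicle mice had log2 ratios of 4.39, 4.40, 4.35, 4.65 and 4.18. At the high dose the ratios were 3.85, 3.99, 3.77 and 3.65, all below the vehicle mice. At the low dose they were 4.42, 3.90, 4.02 and 3.89 and at the medium dose 3.62, 4.01, 4.38, 3.77 and 4.22, and both groups overlapped with vehicle.

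That probe differed by -0.34, -0.39 and -0.58 from the low to the high dose. At the high dose the adjusted p was 0.0182 in limma with a fold of 1.49, under the limit of 1.5, so it was not called. Its slope on dose was -0.54 per 50 mg (SE 0.14, adjusted p = 0.0224, limma) and was called, but not with Cy5 alone (adjusted p = 0.0618), scale normalization (0.409) or median centring (0.817). The brighter probe, which stood for the gene, differed by -0.07, -0.06 and -0.20 (adjusted p = 0.498 at the high dose, limma, with a difference of 0.05 under median centring), and its groups overlapped at each dose. The second probe stood 0.74 ± 0.13 above the brighter one in vehicle mice (SD, n = 5) and 0.36 ± 0.04 above it at the high dose (n = 4). The mean of both probes differed by -0.39 at the high dose (adjusted p = 0.0862, limma). Why the probes differ was not tested, and neither value alone gives the level of the gene.

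Ager, which encodes RAGE, a receptor anchored at the basal membrane of AT1 cells, had log2 ratios of 6.00, 5.91, 5.58, 5.61 and 5.75 in vehicle mice. They were 5.92, 5.88, 5.50 and 5.63 at the low dose, 5.51, 5.70, 5.47, 5.48 and 5.56 at the medium dose and 5.37, 5.50, 5.32 and 5.70 at the high dose. Each exposed group overlapped with vehicle, and 3 of the 4 high dose mice lay below the lowest vehicle mouse. The differences were -0.04, -0.22 and -0.30 (SE 0.11 at the high dose, 95% interval -0.52 to -0.08), with adjusted p of 0.966, 0.281 and 0.138 in limma. The slope on dose was -0.32 per 50 mg (adjusted p = 0.0796, limma), and with the slide as a block it was -0.34 (adjusted p = 0.0138) and passed. The high dose difference was 0.02 with scale normalization between arrays.

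Of the 8 measured ligands of RAGE, mostly small calcium-binding S100 proteins, 1 was called and only at the medium dose. S100a6 differed by -0.57 at the low dose, fell by 0.83 at the medium dose (adjusted p = 0.0113, limma) and differed by -0.60 at the high dose (adjusted p = 0.0847). S100a8 differed by 0.79 at the high dose (adjusted p = 0.31, limma), and Hmgb1 by 0.03.

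Hopx, a homeodomain protein without DNA-binding activity that marks AT1 cells from late lung development on, had brighter-probe ratios of 4.98, 5.00, 4.49, 4.65 and 4.82 in vehicle mice. At the low dose they were 4.89, 4.92, 4.56 and 4.64, at the medium dose 4.54, 4.76, 4.50, 4.39 and 4.24, and at the high dose 4.52, 4.54, 4.26 and 4.69. All low dose mice lay within the range of the vehicle mice, while 2 of the 5 medium dose mice and 1 of the 4 high dose mice lay below it. The differences were -0.04, -0.30 and -0.29 (adjusted p = 0.223 at the high dose, limma). The second probe gave -0.06, -0.27 and -0.31 (adjusted p = 0.0881 at the high dose, limma) and a slope of -0.34 (adjusted p = 0.0518). Both probes thus gave like values, and neither was called. With the slide as a block the slope of the brighter probe was -0.36 (adjusted p = 0.0278, limma).

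The channels and the glycoprotein of the set gave no call. Aqp5 ranged from 4.99 to 5.40 in vehicle mice and from 4.86 to 5.04 at the high dose by its brighter probe, a difference of -0.23 (adjusted p = 0.226, limma). Its second probe differed by -0.02 (adjusted p = 0.951, limma). At the low and medium doses the brighter probe gave -0.13 and -0.13, and the second gave 0.08 and 0.04. The probes of Aqp5 thus did not give the same size or, at these 2 doses, the same sign. Clic5 ranged from 6.51 to 7.03 in vehicle mice and from 6.77 to 6.88 at the high dose, a difference of -0.08 with a 95% interval of -0.34 to 0.17 (adjusted p = 0.835, limma). Pdpn ranged from 0.24 to 0.81 in vehicle mice and from 0.19 to 0.28 at the high dose. The 2 probes of Pdpn differed from vehicle by -0.21 and -0.22 (adjusted p = 0.432 and 0.358, limma). With median centring the high dose difference of Aqp5, Pdpn and Clic5 turned to 0.01, 0.04 and 0.15.

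The relatives and partners of these genes, from fixed lists, gave no call either in limma. None of the 9 other aquaporins was called or had an unadjusted p under 0.05 at the high dose, among them Aqp1, the water channel of the capillary endothelium, at -0.21 (adjusted p = 0.52, limma). None of the 8 relatives of Clic5 and Emp2 was called, and 3 had an unadjusted p under 0.05 at the high dose, 2 of them higher. Of the 7 measured partners of podoplanin, Cd44, a hyaluronan receptor bound by podoplanin, came closest, with differences of -0.48, -0.43 and -0.47 from the low to the high dose. Its adjusted p was 0.0465, 0.00923 and 0.00574 in limma and its fold was under 1.5 at each dose.

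Igfbp2 was the one gene of the set with a mean above vehicle at each dose. Its product binds insulin-like growth factors, and in adult lung it marks a late, settled AT1 state. The brighter-probe ratios were 2.98, 2.07, 2.08, 2.59 and 2.05 in vehicle mice, 2.99, 2.77, 1.95 and 1.96 at the low dose, 2.59, 2.87, 2.20, 2.79 and 2.54 at the medium dose and 3.14, 2.87, 2.81 and 2.35 at the high dose. The values within each group spread widely, and 1 vehicle mouse lay above 3 of the 4 high dose mice. The differences were 0.07, 0.25 and 0.44 (SE 0.22 at the high dose, 95% interval -0.02 to 0.91, adjusted p = 0.349, limma). The second probe gave 0.07, 0.16 and 0.45 (adjusted p = 0.287 at the high dose). With single mice left out, the low dose difference of the brighter probe ranged from -0.12 to 0.22. The SD over vehicle mice was 0.42, the largest of the 8 genes by these probes, and no difference passed the test. None of the 12 other genes of the insulin-like growth factor axis was called at a dose in limma, and 2, both higher, had an unadjusted p under 0.05 at the high dose. At that dose 5 of the 12 were higher and 7 lower, with a median of -0.05. Igf2r, the receptor that clears Igf2, differed by 0.31 at the high dose (adjusted p = 0.0514, limma) and had a slope of 0.30 that was called (adjusted p = 0.0398).

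**Figure D3:**
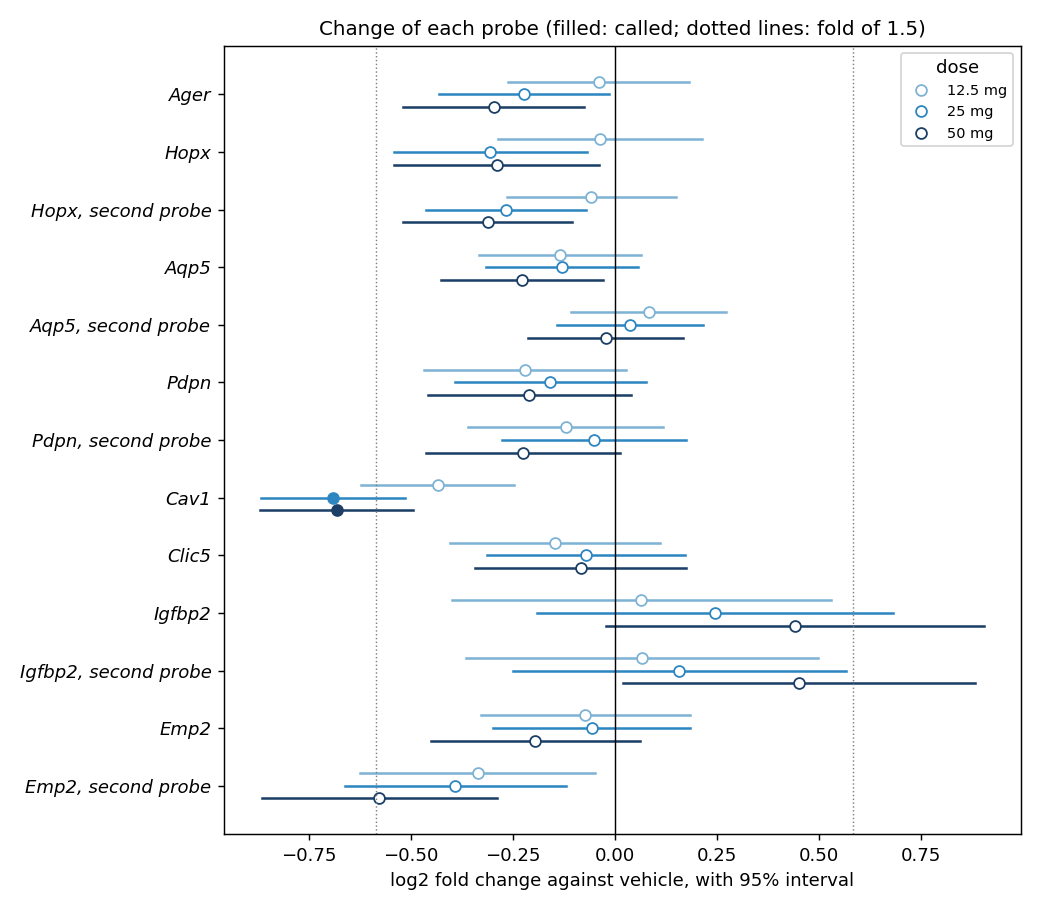
Log2 fold change against vehicle (x axis) of the 13 probes of the 8 genes at each dose, with the 95% interval as lines, filled points for calls and dotted lines at a fold of 1.5. Cav1 at 25 and 50 mg passed the call, and the second Emp2 probe at 50 mg lay at -0.58, just inside the fold limit.

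Counted over the 8 genes, none was called at the low dose and 1, Cav1, was called lower in each of the medium and high groups. Of all genes, 0.16% (low), 0.934% (medium) and 1.51% (high) were called. On the slope, 1 of 8 was called, against 5.07% of all genes, and high against low dose gave none, against 0.0823%. At an unadjusted p under 0.05, the genes that differed were 1 lower at the low dose (9.26% of all genes in either direction), 3 lower at the medium dose (19.7%) and 4 lower at the high dose (20%). On the slope 4 were lower and 1 higher (20.3% of all genes), and high against low dose gave 2 lower (7.12%). The 1 gene called in each case was Cav1.

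At each dose 7 of the 8 genes were lower than vehicle by the probes that stood for them. The median difference was -0.10, -0.14 and -0.22, while the second Aqp5 probe was above vehicle at the low and medium doses. Over all genes 46.3%, 45.1% and 43.6% were lower. That shared direction did not hold under every scaling. At the high dose it was 3 of 8 lower with a median of 0.03 under median centring, and 3 of 8 with 0.01 under scale normalization, while normexp background correction, the ratios of the scanner software, the table of the authors, the slide block and Cy5 alone gave 7 of 8 with medians of -0.22 to -0.08. The mean difference of the 8 genes from the vehicle mean was -0.18 to 0.15 in single vehicle mice and -0.23 to -0.17 in the high dose mice. The ranges thus overlapped, and Cav1 was the lowest of the 8 at the high dose under all 8 ways of scaling drawn in the plot by processing.

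**Figure D4:**
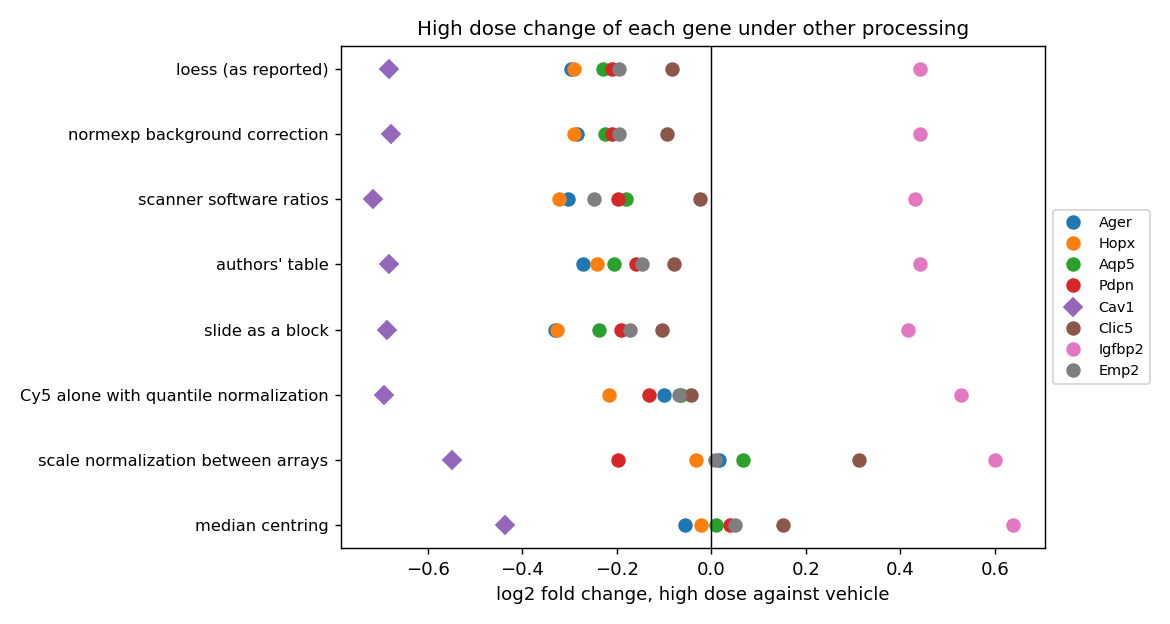
Log2 fold change at 50 mg against vehicle (x axis) of the 8 genes under 8 ways of processing the same arrays (y axis), with Cav1 as diamonds. Cav1 lay between -0.72 and -0.44 in each, Igfbp2 above 0 in each, and the other 6 genes lay nearer to or across 0 under median centring, where Pdpn moved to 0.04, while under scale normalization Pdpn stayed at -0.20.

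A wider list of 20 AT1 genes, of which 19 had a probe, gave no call at any dose in limma, while at the high dose 6 were lower and 1 higher at an unadjusted p under 0.05. At the high dose 14 of the 19 were lower with a median of -0.15, which turned to 7 of 19 and 0.07 under scale normalization and to a median of -0.0047 under median centring. The gene with the smallest p, Lmo7, which links adherens junctions to actin, differed by -0.52 at the high dose (adjusted p = 0.00625, limma), under the fold limit, and its slope of -0.52 was called (adjusted p = 0.00413). Spock2, a matrix proteoglycan of AT1 cells, differed by -0.32 (adjusted p = 0.0994) and Scnn1a, a subunit of the epithelial sodium channel, by -0.34 at the medium dose (adjusted p = 0.0356), under the fold limit. Wnt7a differed by 0.93 at the high dose with an SE of 0.54 (adjusted p = 0.446). Of 18 regulators of AT1 fate and their targets, none was called in limma, and 6, all higher, had an unadjusted p under 0.05 at the high dose. That p was reached by 20% of all genes in either direction. At the same dose 8 of the 18 were higher and 10 lower, with a median of -0.04. Yap1 differed by -0.05 and Nkx2-1, the lineage factor of lung epithelium, by -0.07, while the YAP target Ccn2 differed by 0.56 (adjusted p = 0.175, limma).

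Of 12 genes of the state between AT2 and AT1 cells, which AT2 cells pass through after injury, 3 were called higher at the high dose. At that dose 1.51% of all genes were called. Of the 12, 4 were higher and 8 lower there, with a median of -0.08. Cdkn1a, the p53 target that halts the cell cycle, rose by 1.39, 2.09 and 2.47 on the log2 scale (adjusted p = 2.1e-10 at the high dose, limma). Gdf15, a stress-induced hormone, rose by 2.05, 2.78 and 2.88 (adjusted p = 2.1e-09). Both are p53 targets in many cell types. Ccnd1 rose by 0.65 at the high dose (adjusted p = 7.2e-04). The keratins that define this state were not called, with Krt8 at -0.03, Krt18 at -0.24 and Krt19 at -0.17, and Areg fell by 0.87 at the medium dose (adjusted p = 0.0152, limma) and differed by -0.47 at the high dose (adjusted p = 0.263).

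Markers of other lung cells that share these genes, or lie next to AT1 cells, were read beside them. Of the 10 AT2 genes none was called at a dose in limma, and 2 were called lower on the slope (5.07% of all genes were called on it). At the high dose 3 were lower and 1 higher at an unadjusted p under 0.05. In all, 9 of the 10 were lower at that dose with a median of -0.20, which became 3 lower and 0.16 under scale normalization. Abca3, the lipid pump of lamellar bodies, differed by -0.35 (adjusted p = 0.0336, limma) and Slc34a2, the phosphate transporter of AT2 cells, by -0.37 (adjusted p = 0.0401), both under the fold limit. The mean difference of the AT2 list was -0.06 to 0.06 in vehicle mice and -0.36 to 0.05 at the high dose.

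Cav1 is also high in endothelium, fibroblasts and smooth muscle, so those lists stand beside its fall. Of 10 endothelial genes, 2 were called higher at the high dose, Pecam1 by 0.74 (adjusted p = 6.0e-04, limma) and Emcn by 0.81 (adjusted p = 3.2e-04), and none lower. Signs were mixed at 50 mg, where 5 of the 10 were above vehicle and 5 below (4 higher and 3 lower at an unadjusted p under 0.05) and 2 called higher and 2 lower on the slope. The list mean ranged from -0.24 to 0.11 in vehicle mice and from -0.01 to 0.18 at the high dose. Of 5 genes of the aerocyte, the capillary cell that faces AT1 cells, Ednrb fell by 0.68 at the medium dose (adjusted p = 0.031) and by 0.98 at the high dose (adjusted p = 0.00297). All 5 were lower at the high dose, each at an unadjusted p under 0.05 (4 of 5 lower with median centring), and 2 were called lower on the slope. The aerocyte list mean was -0.13 to 0.11 in vehicle mice and -0.70 to -0.37 at the high dose. Of 8 fibroblast genes, Col1a1, Col1a2, Col3a1 and Dcn fell at the medium and high doses, by 0.64 to 0.90 at the high dose. At the high dose 6 of the 8 were lower and 2 higher, only these 4 at an unadjusted p under 0.05, and 2 were called lower on the slope. The fibroblast list mean was -0.13 to 0.12 in vehicle mice and -0.79 to -0.14 at the high dose. None of 6 smooth muscle genes was called in limma (3 lower at an unadjusted p under 0.05), with list means of -0.66 to 0.35 in vehicle mice and -0.65 to -0.15 at the high dose. All 6 were lower at the high dose with a median of -0.44 (5 of 6 lower with median centring). With median centring none of the named calls in these 3 lists held, as with Cav1. The part of these cells in the fall of Cav1 was not tested.

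Podoplanin is shared with lymphatic endothelium and mesothelium. Of 5 measured lymphatic genes Lyve1, a hyaluronan receptor also made by some macrophages, rose by 1.28 at the high dose (adjusted p = 0.00515, limma). It was the 1 call in the list, in which 3 of the 5 were lower at the high dose, with a median of -0.07, and 4 of 5 at the medium dose. The mesothelial list, with no call among its 5 genes in limma (1 higher and 1 lower at an unadjusted p under 0.05), ranged from -0.57 to 1.30 over single vehicle mice and from -0.42 to -0.19 over high dose mice. Pdpn itself was not called at any dose.

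**Figure D5:**
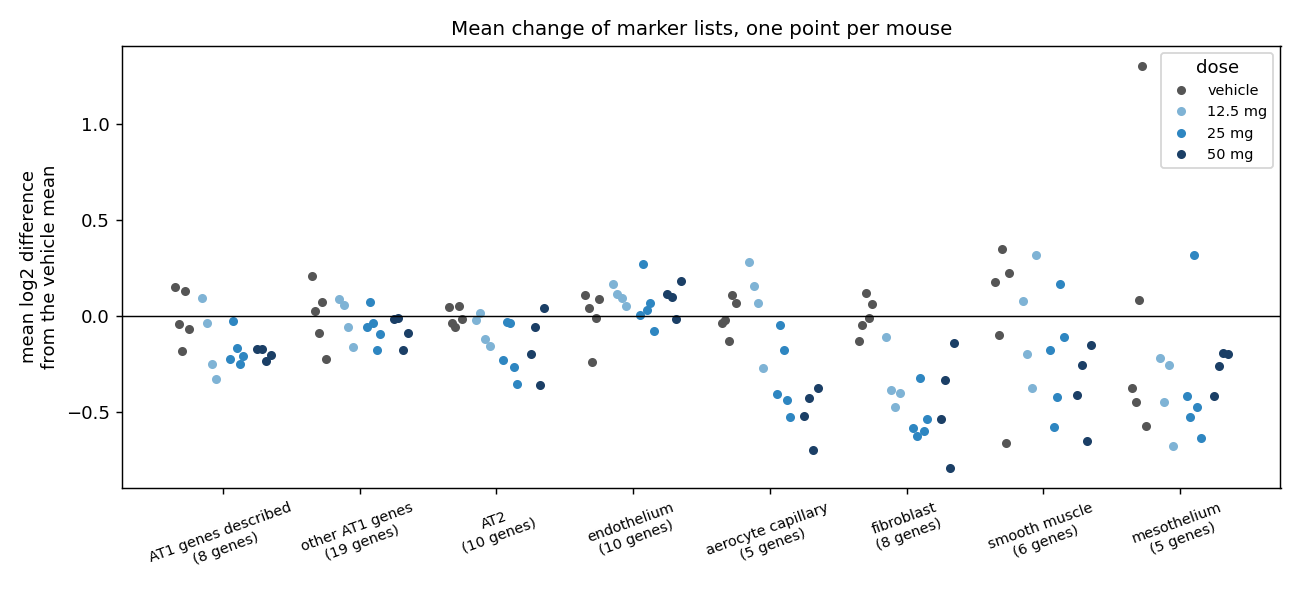
Mean log2 difference from the vehicle mean (y axis) of the 8 AT1 genes and of 7 marker lists (x axis, with the number of genes measured), 1 point per mouse and coloured by dose. High dose mice lay at -0.23 to -0.17 for the 8 AT1 genes, at -0.70 to -0.37 for the aerocyte list and at -0.01 to 0.18 for the endothelial list.

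The genes most like each of the 8 were sought by the correlation of log2 ratios over the 18 mice among 13424 genes well above background on every array. The mice share dose groups and arrays, so these values are descriptions. Cav1 went most closely with Car14, a membrane carbonic anhydrase (r = 0.937), Dubr (0.920) and Zfp958 (0.912). Car14 fell by 1.80 on the log2 scale at the high dose (adjusted p = 2.1e-09, limma). Ager went with Gm1987 (r = 0.935), the endothelial claudin Cldn5 (0.923) and the surfactant protein Sftpd (0.902). Hopx also had Cldn5 (0.943), then Wfdc2 (0.940) and H2-Ab1 (0.935). Pdpn went with Tgfb2 (0.848), Clic5 with Ccdc186 (0.845), Emp2 with Naa80 (0.824), Igfbp2 with Rnf168 (0.796) and Aqp5 with Prmt1 (0.795). Yap1 was the second gene for Clic5 (0.833).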

How the data were processed

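RNA of 18 lungs (Cy5) and a reference RNA (Cy3) were hybridised to 2-colour Agilent mouse arrays of 62976 spots, with no dye swap. The authors deposited the scanner output of Feature Extraction (version 11.0.1.1 per the file headers), which holds spot intensity values and log10 ratios, and a table of normalized log2 ratios, with medians of -0.03 to -0.02 per array and r of at least 0.9955 against the values used here. The deposited intensity medians of each spot were used with no background subtraction, after the methods of the study, as log2 of Cy5 over Cy3. Loess within arrays followed, with the 3671 control spots and outlier spots (215 to 307 per array) at weight 0, and spots of a probe were averaged. The study tested with MAANOVA. Here limma 3.58.1 in R 4.3.3 was fitted over all 4 groups, with a second fit on dose, and 86 probes lacked a value on some array. Probes were named through RefSeq accessions (GRCm38.p6), which gave 27235 of 55681 probes a symbol. On simulated high dose data with 200 changed probes, 85.1% were called at a log2 change of 0.7 and all at 1 and 2, with 5 false among 195 calls. The simulated noise was drawn for each probe on its own, with no shift shared by an array, so errors of normalization are not covered. Precision is set by how many arrays a group has.

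The genes and lists were chosen with earlier results of these data known. Named genes were the 9 members with all probes, list genes called at a dose or largest at the high dose, and for each member the 3 most alike genes. Others named were chosen for their function after their values were seen. In all, 24 lists with 190 measured genes were read. Lists for club, ciliated, heart muscle, macrophage, neutrophil and erythroid cells gave no call in limma, with 0 to 2 genes per list at an unadjusted p under 0.05 at the high dose. The basal list gave Krt15, higher by 0.87 at the high dose, and the lymphocyte list Ms4a1, higher by 0.70 at the medium dose. At the high dose 3 of the 4 basal genes were lower (median -0.08), and on the slope 1 was called higher and 1 lower. At the medium dose 4 of the 8 lymphocyte genes were higher and 4 lower. Alternatives were normexp background correction, scanner ratios, the deposited table, median centring, scale normalization, Cy5 alone, the slide as a block, an intensity filter, outlier spots kept, single comparisons, no fold limit and each mouse left out. Figures were drawn with matplotlib 3.10.9.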

Additional observations from a re-analysis of the deposited data

Results flagged for a closer look

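In 52 group-by-probe sets of 4 or 5 mice, 3 held a mouse whose gap to the nearest other mouse was large for the range of its group, and chance marks about 1 in 20 such groups. For Cav1 at the medium dose, mouse 14 had the lowest log2 ratio, 1.84, against 2.06 to 2.09 in the other 4 mice. Without it Cav1 was still called at that dose. For Clic5, vehicle mouse 3 was lowest at 6.51, against 6.96 to 7.03. For the brighter Emp2 probe, vehicle mouse 4 was highest at 4.09, against 3.47 to 3.61, and without it the medium dose difference turned from -0.06 to 0.05 (adjusted p = 0.885, limma).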

How the results depend on the processing

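No paired analysis was possible because the mouse numbers are not shared between groups. Without each mouse in turn, Cav1 stayed the 1 gene called at the medium and the high dose (1 to 1), none was called at the low dose or between the high and low dose (0 to 0), and the slope gave 1 to 2, the second being Ager without high dose mouse 20. Median centring gave 0 calls at the medium and high doses and 0 on the slope, scale normalization 0 at the high dose, and the slide block 3 on the slope (Cav1, Ager and Hopx). The causes were not tested. The median vehicle log2 ratio was 4.18 to 4.28 with a mouse left out and 3.26 with median centring. Genes called in the other lists numbered 15, against 9 with scanner ratios and 3 with median centring (Cdkn1a, Gdf15 and Lyve1), all among the 15. Over all probes, 670 were called at the high dose, 66.9% of them lower, against 80 and 13.8% with median centring, 404 and 61.6% against 32 and 12.5% at the medium dose, and 50 and 28% against 3 and 0% at the low dose, while the median of all probes moved by less than 0.1.

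Directions that turned were those of genes with no call. With median centring, the low dose differences became 0.100 (Ager), 0.098 (Hopx) and 0.059 (Emp2), the medium dose ones 0.038 (Aqp5), 0.038 (Pdpn), 0.081 (Clic5) and 0.126 (Emp2), and the high dose ones 0.010 (Aqp5), 0.040 (Pdpn), 0.152 (Clic5) and 0.051 (Emp2). With scale normalization, Aqp5, Clic5 and Emp2 became 0.055, 0.177 and 0.068 at the medium dose and 0.066, 0.311 and 0.0082 at the high dose, where Ager became 0.017. With Cy5 alone, Hopx became 0.016 and Emp2 0.026 at the low dose, and Emp2 0.046 at the medium dose. With single mice left out, the low dose differences ranged from -0.102 to 0.039 for Ager, -0.111 to 0.029 for Hopx, -0.124 to 0.222 for Igfbp2 and -0.122 to 0.036 for Emp2, and the medium dose ones from -0.167 to 0.0086 for Clic5 and -0.140 to 0.052 for Emp2. Against Cavin1 the adjusted exact permutation p of Cav1 became 0.0556 at the low dose and 0.0536 at the medium dose with scale normalization and 0.0556 at the low dose with normexp. Against the mean of the other 7 genes it became 0.0536 at the low dose with scale normalization.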
